A study of Mus musculus with 8 samples.

Results

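Connexins are the proteins that build gap junctions, the channels through which neighbouring cells exchange ions and small molecules. Connexin subunits assemble into a hemichannel, and hemichannels of neighbouring cells dock through their extracellular loops. In stratified squamous epithelium such as that of the esophagus, several connexins are made together, in layers that change as keratinocytes differentiate. The 7 connexin genes described here, Gja1, Gja4, Gja5, Gjb2, Gjb5, Gjb6 and Gjc1, were chosen by name among the 49315 genes of the deposited count table, and all 7 had enough counts to be tested, as did 16760 genes in all.

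RNA of the whole esophagus was sequenced from 8 male mice of 8 weeks. The 4 EoE33 mice carried a transgene that overexpresses IL-33, an epithelial alarmin cytokine, in the esophagus. The 4 controls were wild type littermates, and all mice were on the C57BL/6J strain. The promoter that drives the transgene is not given in the sources used here, and counts per gene do not separate transgene from endogenous Il33. The mean Il33 level was 128.9 CPM in the controls and 371.3 CPM in the transgenic mice. CPM is the level per 1e6 counts after scaling the libraries by TMM, a method that matches them on the bulk of genes.

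Each library held 17.73 to 24.07 times 1e6 counts. The markers of squamous epithelium were abundant in every library, with summed suprabasal levels of 63150 to 104300 CPM in the controls and 14430 to 36470 CPM with the transgene. The 8 striated muscle markers were all lower in EoE33. Their summed level was 20910 to 23240 CPM in the controls and 5763 to 7659 CPM with the transgene. Levels in CPM are relative to the rest of a library, and the part of muscle in the levels of other genes was not tested. Airway transcripts stood apart in wild type replicate 3 and liver transcripts in wild type replicate 1. Results were recomputed without both, and all 3 member calls below passed there too. Of the genes tested, 63.4% differed between the groups at an edgeR adjusted p under 0.05 (31.3% higher and 32.1% lower in EoE33), and in 59.5% the groups did not overlap. The shares of genes called below are to be read against these shares.

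The family is recognised in the coding sequence by 3 cysteine codons of the first extracellular loop, where hemichannels dock. They are separated by 6 and by 3 codons, and all 7 members carried this spacing once, at codons 53 to 64 or 54 to 65. The same spacing was present in 2.09% of 21899 mouse genes with a coding sequence. The stretches below were read from GENCODE M21 transcripts (GRCm38), with the cysteine codons in capitals. They are shown for the spacing that the members have in common.
Gja1: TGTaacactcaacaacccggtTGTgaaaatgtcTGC
Gja4: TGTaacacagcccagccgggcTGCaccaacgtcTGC
Gja5: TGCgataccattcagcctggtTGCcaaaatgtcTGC
Gjb2: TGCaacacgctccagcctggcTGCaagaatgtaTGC
Gjb5: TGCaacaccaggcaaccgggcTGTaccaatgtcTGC
Gjb6: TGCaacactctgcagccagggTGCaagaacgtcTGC
Gjc1: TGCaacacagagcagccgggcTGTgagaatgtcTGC
The bases between the cysteine codons differed among the members, and so did the rest of the coding sequence. Over the whole coding sequence Gjb2 and Gjb6 were the most alike, with 66.2% identical bases in a global alignment, and Gjb2 and Gjc1 the least, with 40.3%. With 1 transcript taken per member, none of its 150-base windows occurred in a transcript of another gene read in the same direction. At that length these 7 transcripts do not match one another in that direction. Other exons of the members and matches on the opposite strand were not searched.

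Gjb2 was higher and Gja1 and Gjc1 were lower in the EoE33 than in the wild type esophagus, relative to the other RNA of each library. Of the 7 members, 1 rose, 2 fell and 4 did not pass the test, which is 42.9% called against 63.4% of all genes. The median log2 fold change of the members was -0.29, beside -0.01 over all genes tested. The 2 most abundant members moved in opposite directions: Gjb2 rose 3.37-fold while Gja1 was 2.12-fold lower. Gjb6, Gjb5, Gja4 and Gja5 were the 4 that missed the threshold.

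**Figure D1:**
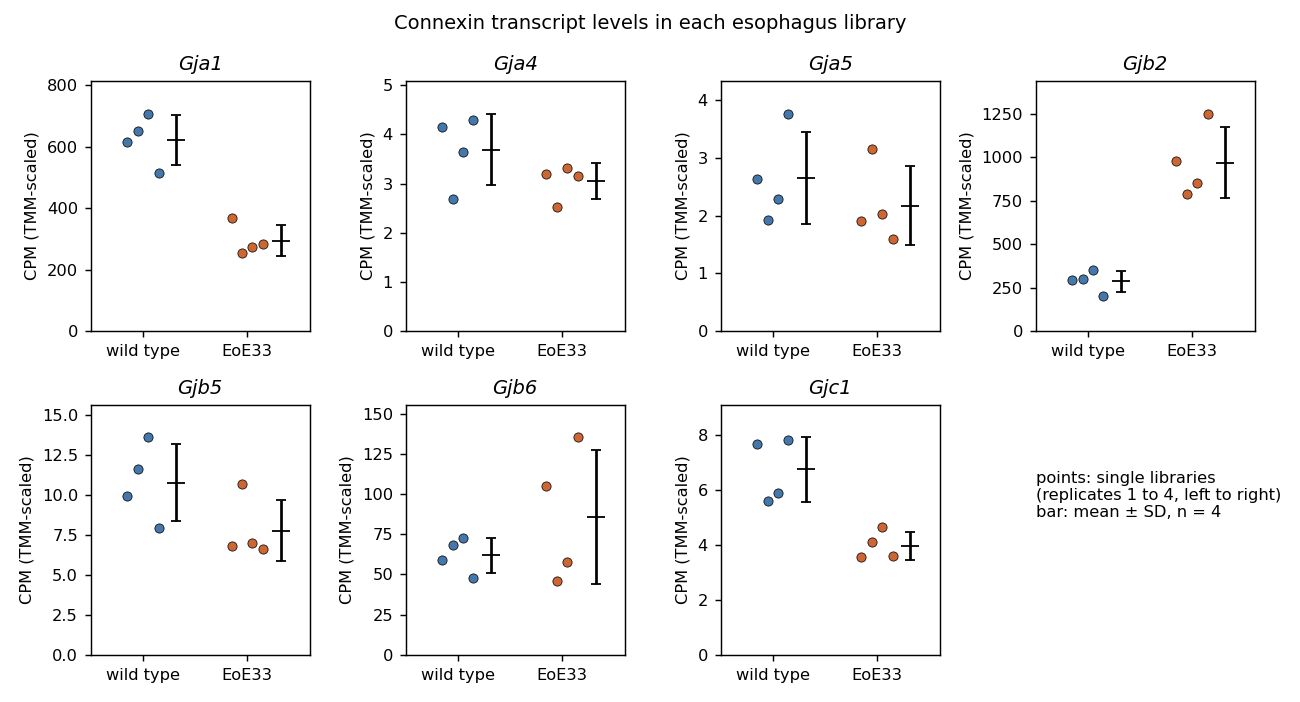
Level of each connexin (vertical axis, CPM, starting at 0 with a scale of its own per gene) in the 4 wild type and 4 EoE33 libraries, with the mean and SD of each group beside the points. The groups do not overlap for Gja1, Gjb2 and Gjc1, and they overlap for the other 4 genes.

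The beta connexins of keratinocytes come first. Gjb2 encodes Cx26, a connexin of keratinocytes and cochlear supporting cells. The gene lies on chromosome 14 from 57098600 to 57104702 (GRCm38, minus strand). In wild type replicates 1 to 4 its level was 296.1, 301.1, 349.5 and 202.6 CPM, and in EoE33 replicates 1 to 4 it was 975.7, 790.7, 851.7 and 1250 CPM. Every EoE33 library lay above every wild type library, with the lowest EoE33 value at 790.7 CPM and the highest wild type value at 349.5 CPM. Mean Gjb2 was 287.3 ± 61.4 CPM without and 967 ± 204 CPM with the transgene (SD, n = 4 each). This is a rise of 1.75 ± 0.19 (SE) on the log2 scale, 95% interval 1.31 to 2.19 (edgeR adjusted p = 6.19e-05). The summed level of the basal keratinocyte markers was 3501 to 5044 CPM without and 16150 to 19880 CPM with the transgene. That of the suprabasal markers was 63150 to 104300 and 14430 to 36470 CPM. The part of keratinocyte composition in the rise of Gjb2 was not tested.

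Gjb6 encodes Cx30, which can form mixed channels with Cx26. It is the neighbour of Gjb2, 18.6 kb away on chromosome 14 (57123303 to 57133611, minus strand). Its level in the wild type libraries was 59.15, 68.03, 72.35 and 47.97 CPM, and in the EoE33 libraries 105.1, 45.65, 57.99 and 135.2 CPM. EoE33 replicates 1 and 4 lay above all wild type libraries, replicate 3 lay among them and replicate 2 lay below them all. The log2 fold change of 0.47 had a standard error of 0.34 and an interval from -0.31 to 1.26, and it did not pass (edgeR adjusted p = 0.251). The SD of the EoE33 libraries was 41.6 CPM, against 10.8 CPM among the controls.

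The EoE33 libraries stood in the same order for Gjb6 and Gjb2, with replicate 2 lowest, then 3, 1 and 4. The keratinocyte genes Sbsn, Krtdap, Krt16 and Krt6b had this order as well, which 8.59% of tested genes shared. Other squamous genes did not: Krt4, Krt13, Krt15 and Lor had replicate 2 lowest, then 3, 4 and 1. The member Gja1 shared that order, which 8.74% of tested genes had. Krt5 had replicate 1 lowest, then 4, 3 and 2. Sbsn, a gene of differentiated keratinocytes, was at 241.7, 34.88, 106.1 and 253.4 CPM in EoE33 replicates 1 to 4. The part of differentiated epithelium in the spread of Gjb6 was not tested.

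Gjb5 encodes Cx31.1, a connexin of squamous epithelium. It lies on chromosome 4 (127354809 to 127358181, minus strand). Its level was 9.929, 11.6, 13.58 and 7.924 CPM in wild type and 6.78, 10.65, 6.99 and 6.641 CPM in EoE33. EoE33 replicates 1, 3 and 4 lay below all wild type libraries, and replicate 2 lay among them. The log2 fold change was -0.47 (standard error 0.21, 95% interval -0.94 to -0.01) and missed the threshold with an edgeR adjusted p of 0.0705. Without EoE33 replicate 2 it was -0.66 and passed (edgeR adjusted p = 0.0121), and without wild type replicate 4 it was -0.60 and passed (0.0288). It also passed with the replicate number as a block (edgeR adjusted p = 0.0463) and with scaling by library size alone (0.048).

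Among the alpha and gamma connexins, Gja1 encodes Cx43, the most widespread connexin, made by basal keratinocytes, fibroblasts and smooth muscle alike. The gene lies on chromosome 10 from 56377330 to 56402513 (plus strand). Its level was 614.8, 651.6, 707 and 515.4 CPM in wild type and 367.4, 254.5, 272.9 and 281.9 CPM in EoE33. Every EoE33 library lay below every wild type library, with EoE33 replicate 1 nearest to them. Mean Gja1 was 622.2 ± 80.6 CPM without and 294.2 ± 50.1 CPM with the transgene (SD, n = 4 each). Its log2 fold change of -1.08 had an SE of 0.14 and an interval from -1.39 to -0.77 (edgeR adjusted p = 0.000125).

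In bulk tissue, fewer cells of a type and less RNA per cell cannot be told apart, and Gja1 has several sources here. Of the fibroblast markers 5 of 6 fell (summed level 2363 to 2864 CPM in the controls and 1198 to 1609 CPM with the transgene). Of the smooth muscle markers 5 of 8 fell (3404 to 7032 and 2181 to 2435 CPM). That sum includes Des, which striated muscle makes too, at 2696 ± 272 CPM in the controls and 965.5 ± 70.8 CPM with the transgene (SD, n = 4 each). Acta2, Myh11 and Tagln were called lower although their groups overlapped. Basal keratinocyte markers went the other way, with 6 of 7 higher and 1 lower (3501 to 5044 and 16150 to 19880 CPM). Of the suprabasal keratinocyte markers 7 of 8 fell (63150 to 104300 and 14430 to 36470 CPM). Over all genes tested 32.1% were lower and 31.3% higher. The part of these cell types in the fall of Gja1 was not tested.

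Gjc1 encodes Cx45, a connexin of smooth muscle, interstitial and conducting cells. It lies on chromosome 11 from 102799579 to 102819700 (minus strand). Its level was 7.68, 5.622, 5.881 and 7.838 CPM in wild type and 3.581, 4.097, 4.66 and 3.595 CPM in EoE33. The groups did not overlap, and Gjc1 was lower in all 4 EoE33 libraries. Its log2 fold change of -0.76 had an SE of 0.16 (95% interval -1.13 to -0.39, edgeR adjusted p = 0.00285). The median log2 fold change of the 8 smooth muscle markers, Des included, was -1.03, and that of the 5 mural markers was -0.71. Of the 2 markers of interstitial cells of Cajal, Ano1 was 3.26-fold higher in EoE33 and Kit did not pass. The 2 thus gave no common direction for these cells, and which cells made Ano1 here was not tested. The part of these cells in the fall of Gjc1 was not tested.

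Gja4 and Gja5 encode Cx37 and Cx40, connexins of arterial endothelium. Gja4 lies on chromosome 4 (127311421 to 127314039, minus strand) and was at 4.158, 2.679, 3.639 and 4.283 CPM in wild type and 3.199, 2.517, 3.322 and 3.146 CPM in EoE33. The groups overlapped, and the log2 fold change was -0.27 with an interval from -0.70 to 0.15 (edgeR adjusted p = 0.225). Gja5 lies on chromosome 3 (96904693 to 97077416, plus strand) and was at 2.631, 1.933, 2.285 and 3.769 CPM in wild type and 1.91, 3.16, 2.028 and 1.598 CPM in EoE33. Here too the groups overlapped (log2 fold change -0.29, interval -0.92 to 0.33, edgeR adjusted p = 0.375). These genes had 250 to 345 and 173 to 248 counts per group, and the intervals do not exclude a fall of more than 1.5-fold. The annotated exons of Gja5 overlap those of Gpr89 on the other strand, which stood at 21.13 CPM in the controls. No source used here says whether strand was used, so reads in that overlap cannot be assigned with certainty.

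Endothelial markers moved in both directions, with 1 of 10 higher and 5 lower (60% called against 63.4% of all genes). Their summed level was 290.6 to 421.9 CPM in the controls and 301.4 to 336.8 CPM with the transgene. Relative to the mean log2 level of these markers in the same library, Gja4 was at -2.94 ± 0.21 without and -2.94 ± 0.12 with the transgene (SD, n = 4 each). Gja5 was at -3.43 ± 0.20 and -3.46 ± 0.49. The differences of 0 and -0.03 did not pass a two-sided exact permutation test (adjusted p = 0.971 for both, over 7 ratios). Their signs turned when single libraries were left out, so no direction was resolved for either gene. These markers are of endothelium in general. Of 6 arterial endothelial markers 2 were higher and 3 lower (median log2 fold change -0.09), and ratios to them were not computed.

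**Figure D2:**
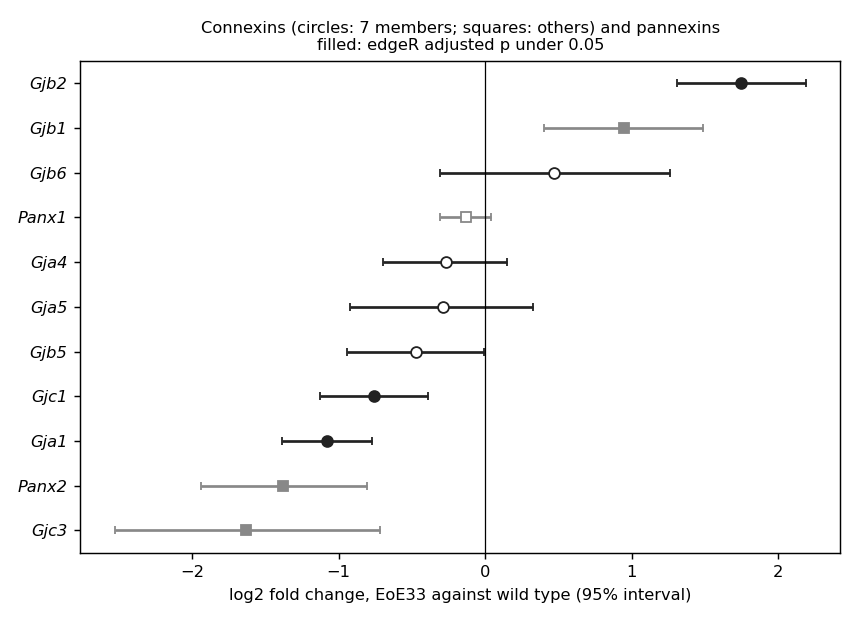
Log2 fold change of EoE33 against wild type (horizontal axis) with its 95% interval for the 7 members and for Gjb1, Gjc3, Panx1 and Panx2, ordered by value. Gjb2 and Gjb1 lie to the right with filled symbols, and Gja1, Gjc1, Gjc3 and Panx2 lie to the left with filled symbols.

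The rest of the family was counted as well. Of the 16 other connexin and pannexin genes, 7 were tested, of which 1 rose, 5 fell and 1 did not pass. This is 85.7% called against 63.4% of all genes, with a median log2 fold change of -0.95. Gjb1, whose product Cx32 is best known from liver and Schwann cells, was higher in EoE33, with 4.784 ± 0.608 CPM against 2.479 ± 0.818 CPM (SD, n = 4 each; edgeR adjusted p = 0.00726).

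Gjc3, a glial connexin gene, fell with a log2 fold change of -1.63. It was highest in wild type replicate 3, at 7.912 CPM against 2.855 to 5.011 CPM in the other wild type libraries. That is the library with airway transcripts, and their part in the value was not tested. Panx1 and Panx2 belong to the pannexins, which form channels in single membranes. Panx1 did not pass (log2 fold change -0.13, interval -0.31 to 0.04), and Panx2 fell with a log2 fold change of -1.38 from a level of 0.9964 CPM. Gja3, Gja6, Gjd2, Gjd3 and Gjd4 had 12 to 61 counts over all libraries and were too low to test. Panx3 had 3 counts and Gja10 and Gje1 had 0, where a floor of 3 counts corresponds to 0.127 to 0.176 CPM in a library.

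Some members lie side by side in the genome. On chromosome 14, Gjb2 rose, its neighbour Gjb6 did not pass, and Gja3 of the same 99.2 kb was too low to test. On chromosome 4, Gja4 and Gjb5 both had negative log2 fold changes that did not pass.

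Levels of different genes were compared per kilobase, using the longest RefSeq-matched transcript of each. Without the transgene the order was Gja1 at 203 ± 26.3 CPM per kb, Gjb2 at 119 ± 25.5 and Gjb6 at 29.4 ± 5.12 (SD, n = 4 each). Then came Gjb5 at 6.25 ± 1.40, Gjc1 at 2.92 ± 0.504, Gja4 at 2.19 ± 0.433 and Gja5 at 0.854 ± 0.256 CPM per kb. Gjc1 and Gja4 overlapped between libraries, and the other neighbours in this order did not. In EoE33 the order was Gjb2 at 402 ± 84.6, Gja1 at 95.8 ± 16.3, Gjb6 at 40.8 ± 19.8 and Gjb5 at 4.51 ± 1.12 CPM per kb. Gja4 at 1.81 ± 0.214 and Gjc1 at 1.72 ± 0.221 overlapped there, and Gja5 was again last at 0.699 ± 0.219.

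The make-up of the connexin pool differed accordingly. Of all connexin counts per length, Gja1 took 48, 48.5, 48.3 and 50.3% in wild type replicates 1 to 4 and 19.5, 17.2, 17.4 and 12.9% in the EoE33 libraries. Gjb2 took 29.5, 28.6, 30.5 and 25.2% in wild type and 66.2, 68.1, 69.3 and 73% in EoE33. Gja1 was thus the leading connexin transcript in all 4 wild type libraries, and Gjb2 in all 4 EoE33 libraries. The share of Gjb6 was 7.04 ± 0.313% in the controls and 6.76 ± 2.16% with the transgene (SD, n = 4 each), and the groups overlapped. The summed level of all connexins was 416 ± 60.1 CPM per kb without and 579 ± 104 CPM per kb with the transgene (SD, n = 4 each).

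These shares depend on the length given to Gja1. With the union of all annotated exons, 10257 bases in place of 3071, Gja1 took 23 ± 0.79% in wild type and 5.82 ± 1.08% in EoE33, and Gjb2 took 44.8 ± 3.08% and 80 ± 1.70%. Gjb2 then led in wild type as well. The differences of Gja1 and Gjb2 had the same direction under either length. Gjb6 took 8.27 to 9.13% in the controls and 4.09 to 8% with the transgene by union length, so its groups no longer overlapped.

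**Figure D3:**
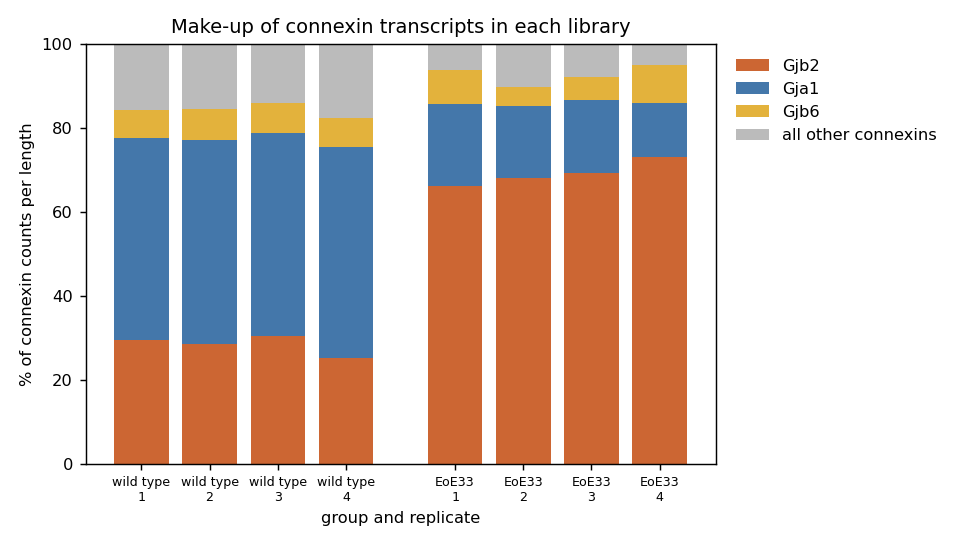
Share of Gjb2, Gja1, Gjb6 and all other connexins together in all connexin counts per length (vertical axis, %), for each library (horizontal axis). Lengths are those of the longest RefSeq-matched transcripts. The Gjb2 part is 25.2 to 30.5% in wild type and 66.2 to 73% in EoE33, and the Gja1 part is 48 to 50.3% and 12.9 to 19.5%.

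Ratios of counts within a library do not depend on how libraries are scaled. The ratio of Gja1 to Gjb2 was 2.19 in wild type and 0.306 in EoE33, a difference of -2.84 on the log2 scale. The ratio of Gjb6 to Gjb2 went from 21.7% to 8.23% (-1.40), and that of Gjb5 to Gjb2 from 3.75% to 0.802% (-2.23). In all 3 the groups did not overlap, and each had the smallest p that a two-sided exact permutation test of 4 against 4 can give, 0.0286. Adjusted over the 7 ratios this became 0.0667, so none passed the threshold of 0.05. With only these 3 at the smallest p, the adjusted p could not be lower at any size of difference. Missing the threshold therefore does not speak against a difference. Gjb2 is the denominator of all 3, so its rise enters each. The ratio of Gjc1 to the smooth muscle markers, Des included, differed by 0.21 (exact permutation test, adjusted p = 0.85), with wild type replicate 3 highest. Without that library the difference was 0.45 (exact permutation test, adjusted p = 0.05). The 3 ratios to Gjb2 had the same adjusted p there. Each of these was at the smallest p that 4 against 3 can give, 0.0286.

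**Figure D4:**
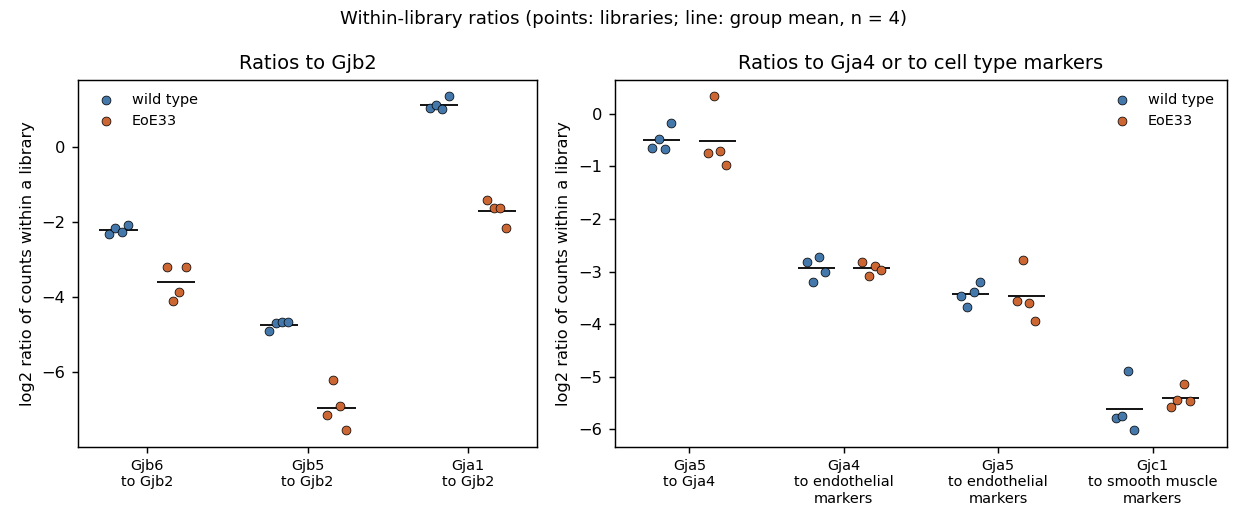
Log2 ratio of counts within each library (vertical axis) for Gjb6, Gjb5 and Gja1 to Gjb2 on the left and for Gja5 to Gja4, Gja4 and Gja5 to endothelial markers and Gjc1 to smooth muscle markers on the right. On the left the 4 EoE33 points lie below the 4 wild type points in each pair, and on the right the groups overlap.

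The wild type libraries also differed among themselves in a way that members shared. Gja1, Gjb2, Gjb5 and Gjb6 were all lowest in replicate 4, then 1, 2 and 3, and so were the squamous keratins Krt4, Krt13 and Krt5. This order held in 11.1% of tested genes. It was not that of all squamous genes checked: Krt15, Lor, Sbsn and Krtdap were lowest in replicate 4, then 1, 3 and 2, and Krt16 and Krt6b had other orders. Krt4 was at 34510, 38270, 45150 and 25380 CPM in wild type replicates 1 to 4. Gja4, Gja5 and Gjc1 had another order in common, with replicate 2 lowest, then 3, 1 and 4, which 5.65% of tested genes had. The smooth muscle myosin gene Myh11 was highest in replicate 4 too, at 1739 CPM. Its order was not the same, as Myh11 was lowest in replicate 3, at 373.7 CPM, and not in replicate 2. The part of tissue composition in these orders was not tested.

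The upstream sequences of the 2 most abundant members are shown for comparison, each with the 250 bases before the RefSeq start site (GRCm38.p6), 5′ to 3′ on the gene's strand. Of Gja1 this is chr10:56377050-56377299, plus strand, with a match to the AP-1 motif TGANTCA in capitals, 19 bases before the start.
Gja1: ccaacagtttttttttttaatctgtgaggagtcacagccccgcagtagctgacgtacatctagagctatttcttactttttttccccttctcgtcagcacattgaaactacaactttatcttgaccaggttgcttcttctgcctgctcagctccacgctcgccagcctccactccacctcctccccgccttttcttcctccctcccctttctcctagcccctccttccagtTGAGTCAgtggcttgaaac
Of Gjb2 it is chr14:57104703-57104952, minus strand, with 2 matches to the GC box GGGCGG, on either strand, in capitals.
Gjb2: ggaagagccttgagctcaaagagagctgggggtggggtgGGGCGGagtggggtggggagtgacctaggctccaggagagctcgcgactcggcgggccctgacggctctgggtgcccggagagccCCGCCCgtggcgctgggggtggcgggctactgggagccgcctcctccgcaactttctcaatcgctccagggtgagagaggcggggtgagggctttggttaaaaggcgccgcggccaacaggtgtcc
Of the 32851 upstream stretches of this length in the table, 6.75% held TGANTCA and 32.7% held GGGCGG, counting both strands. The STAT6 motif, TTC and GAA with 4 bases of any kind between them, was present in 5.85% and had no match in these 2 stretches, nor in those of Gja4, Gja5, Gjb5 and Gjb6. A match is a run of letters and does not show that a factor binds.

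Genes known to bind, traffic or modify connexins were measured alongside. Of 21 such genes, all tested, 11 rose, 6 fell and 4 did not pass (81% called, median log2 fold change 0.26). Over all genes tested 63.4% were called, 31.3% higher and 32.1% lower, with a median of -0.01. Tjp3, which encodes the junction scaffold ZO-3, rose from 40.29 ± 4.48 to 92.44 ± 13.2 CPM. Ezr, the gene of the membrane linker ezrin, rose 2.23-fold. Of the kinases that act on Cx43, Src rose 2.19-fold and the mitotic kinase gene Cdk1 6.45-fold. Cnst encodes consortin, a receptor that helps connexins reach the plasma membrane, and was lower in EoE33, with 40.39 ± 6.93 CPM against 93.95 ± 3.22 CPM (SD, n = 4 each; log2 fold change -1.22, edgeR adjusted p = 1.88e-05).

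For each member the genes with the most similar profile over the 8 libraries were found among 13920 candidates, as the smallest root mean square difference of log2 CPM after centring each gene on its mean. For Gjb2 these were Il34, a cytokine gene, at 0.09 and Aqp3, the aquaglyceroporin gene of keratinocytes, at 0.14. For Gja1 they were Hmgn3 at 0.08 and Rassf5 at 0.09, and for Gjc1 Dtx1 at 0.07 and Ggt7 at 0.08. For Gjb6 they were Wnk4 at 0.16 and Tgm5, a transglutaminase gene, at 0.18, and for Gjb5 Paqr8 at 0.15 and Slc7a2 at 0.16. For Gja4 they were Glb1l at 0.06 and Lipa at 0.10, and for Gja5 Grap at 0.14 and Cd200 at 0.16. All these profiles share the 8 libraries and their split into 2 groups.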

How the data were processed

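PolyA-selected RNA of 8 esophagi was sequenced, and the authors deposited raw counts per Ensembl gene, per the labels. The submitters' processing notes name Trimmomatic 0.36, STAR 2.5.2b, featureCounts, Subread 1.5.2 and GRCm38 with no role for each. For the annotation release, strand use and multi-mapped reads the sources used here give nothing. Columns were assigned to samples by the spreadsheet letter in each sample's description. GENCODE M21 matched 49056 of 49315 identifiers. All pairs of libraries within a group differed by more than sampling noise (chi-square divided by its degrees of freedom, 10.38 to 70.1). The labels name littermates but not separate batches, and p-values measure the spread between these 8 samples.

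Genes passing filterByExpr were scaled by TMM and tested with edgeR 4.0.16 (robust quasi-likelihood, R 4.3.3, Benjamini-Hochberg over 16760 genes, threshold 0.05). Ratios had 0.5 counts added, and 3 counts served as the floor, which covers counting error only. On simulated counts of the same 16760 genes and design, 80% of 50 genes raised 2-fold and 40% of 50 raised 1.5-fold were recovered. Of 50 set to 0.5-fold 72% were recovered, and of 50 raised 4-fold 98%, with 9 false calls among 154. No other genes were changed, whereas 63.4% were called in the data, so these rates do not give the power of the test there. The replicate numbers did not pair the samples.

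The members, lists and ratios were chosen with earlier results of these data known. The named genes are all members, every other connexin or pannexin with at least 10 counts, the 6 partners with the smallest p, and the 2 genes most like each member. Some of these are not reported here. Gja10, Gje1 and Panx3 were named for their low counts, and GGGCGG and the markers named for their library order were chosen after values were seen. Alternatives were other scalings, filters and tools (DESeq2 1.42.0, limma 3.58.1), a stricter threshold of 0.01, the replicate block and leaving out libraries.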

Additional observations from a re-analysis of the deposited data

Results flagged for a closer look

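Gjb5 in EoE33 replicate 2, at 10.65 CPM, lay far from the other 3 EoE33 libraries, the nearest of which was at 6.99 CPM. Panx2 in EoE33 replicate 3, at 0.4746 CPM, lay far from the other 3, the nearest of which was at 0.3512 CPM. These were 2 of 28 groups of 4 libraries checked over 14 genes, and chance marks about 1 in 20.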

How the results depend on the processing

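The calls of Gja1, Gjb2 and Gjc1 kept direction and threshold under every alternative run, as did those of the other family members and partners named as called, except that Panx2 gave no value with at least 1 CPM required in 4 libraries. Gja4, Gja5 and Gjb6 passed under none. Of the members only Gjb5 crossed the threshold, in the 4 settings given with it. The other connexins and pannexins called, 6 in the report, numbered 5 with the 1 CPM filter and 7 without wild type replicate 4, and the partners called, 17 in the report, ranged from 14 to 18. With the replicate block 1 member was higher and 3 lower, and same-numbered libraries had correlations of deviations between -0.14 and 0.08, so the numbers were not taken as pairs. Under that block the ratios to Gjb2 had adjusted p = 0.292 in an exact sign-flip test, which cannot go below 0.125 unadjusted. Scaling by library size without the counts of Chil4 moved the median of all genes by 0.10 and the counts of calls to 6069 higher and 4551 lower. Leaving out single libraries, the differences of Gja4 and Gja5 to endothelial markers ranged from -0.091 to 0.068 and from -0.261 to 0.126, and that of Gja5 to Gja4 from -0.31 to 0.121. With 1 count added, the Gja4 difference was 0. With union exon lengths, an alternative chosen after seeing the data, the share of Gja1 differed by -17.2 percentage points in place of -32, and that of Gjb2 by 35.2 in place of 40.7. Low counts limit Gja4 and Gja5.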
